A study of Zygosaccharomyces parabailii with 12 samples.

Results

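Zygosaccharomyces parabailii ATCC60483 carries genes whose sequence is the same, from start to stop, as that of another gene of the genome. Reads of such genes have several equally good placements and were therefore counted apart from the rest. All genes of that separate count table were taken except the 4 copies of the D-lactate dehydrogenase genes DLD1 and DLD2, which left 228 of 10085 coding genes. The 228 genes formed 108 sets of identical copies: 104 pairs, 2 sets of 3 copies and 2 sets of 7 copies. Copies of 1 set share their reads, so each set was described by the sum of its copies, and nothing can be said of which copy a read came from.

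Cultures were grown in batch bioreactors in Verduyn medium at pH 3 with 40 g of lactic acid per liter or without it (control). RNA was taken at 42 h, after the diauxic shift, and at 18 h, in exponential phase, which gave 3 lactic acid and 3 control libraries at 42 h, and 3 lactic acid and 2 control libraries at 18 h. The other control library at 18 h, replicate 2, was nearly empty, with 322 counts of duplicated genes, and was left out, as the authors did. All groups share the strain, the medium, its pH and the culture system. The libraries are the 3 replicates of each condition and time, and no source used here says that each came from its own fermentation. The p-values therefore measure the spread between these libraries only.

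Z. parabailii is a hybrid of a pair of yeast species, and most of its genes exist as an A and a B homeolog, 1 inherited from each parent. Over time, 1 homeolog can be overwritten with a copy of the other, which leaves identical genes at both places. Tandem repeats and the families that lie near chromosome ends are the other usual sources of identical genes in yeasts. Gene roles below are those of the Saccharomyces cerevisiae genes of the same name, given as background.

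Of the 108 sets, 106 had copies on different chromosomes and 2 had all their copies on 1 chromosome. The annotation labelled the copies of 65 sets A, those of 21 sets B and those of 21 sets N, and 1 set, B10180, had no label. Among the A sets, MT-47 (described below) carried the label on its chromosome 2 copies only. Many lay side by side. When duplicated genes separated by at most 2 other coding genes were joined, 12 runs held 5 or more duplicated genes, with 15 genes in the longest, and several runs appeared on 2 chromosomes with the same genes in the same order (assembly ASM198439v2). GAL7, GAL10, GAL1, YBR053C, YRO2, RFS1, MIX14 and RAD28 followed each other on chr10:402344-416987 and again on chr13:441896-456532. The run from COX10 to CPA1 held 12 genes on chr5:213147-232751 and on chr13:714169-733772. TRX2, SER2, POL31, PSD2, YKR023W and GSM1 lay on chr4:654456-668401 and on chr6:407819-421772. TEF2 lay beside an array of small genes named MT-47 and MT-58, which alternated in 2 and 2 copies on chromosome 2 and in 5 and 5 copies on chromosome 7. MT is the usual abbreviation of metallothionein, a small metal-binding protein, but the annotation gives these genes no function, and the chromosome 7 copies of MT-47 were joined to the set by their equal coding length (141 bp without the stop codon) and their place in the array.

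The reads were almost entirely shared ones, which follows from taking genes identical over their full length. Over the 11 libraries the 228 genes held 11145656 duplicated counts but only 909 counts in the table of uniquely placed reads, and 202 of the 228 genes had none there. CYC7 had the most, with 279 and 261 unique counts on its copies beside 68896 and 68416 shared ones. The aligner puts a read with several equal placements on 1 of them at random, and in 96 of the 101 pairs with at least 100 counts the first-listed copy held between 47 and 53% of the counts. The exact (Clopper-Pearson) 95% interval of that share, which covers counting error only, held 50% in 72 of the 101. Of the 2 sets with 3 copies, A00120 split 45.7, 27.5 and 26.7%, and C00120, with far fewer counts, split 29, 48 and 23%. Among the first-listed copies of those 101 pairs, the lowest share was 43.6% (Y helicase A10220) and the highest 54.7% (a carboxypeptidase S-like gene). In the MT-47 set each chromosome 2 copy held 18.6 or 18.7% of the counts and each chromosome 7 copy 12.5 or 12.6%, and MT-58 showed the same step between chromosomes.

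Counts of duplicated genes came to 640130 to 697549 per lactic acid library and 593436 to 897159 per control library at 42 h, and to 1340334 to 1454573 per lactic acid library and 1214495 to 1515591 per control library at 18 h. As a share of all counted reads they made up 5.11 ± 0.43% in lactic acid and 6.40 ± 0.24% in the control at 42 h (SD, n = 3 each), a difference of -1.29 percentage points. At 18 h they made up 9.69 ± 0.53% in lactic acid (SD, n = 3) and 8.13 ± 0.23% in the control (SD, n = 2), a difference of 1.56 points. Between times, the share was lower at 42 h than at 18 h, with a difference of -4.58 points in lactic acid and -1.73 points in the control. None of the 4 pairs of groups overlapped, and each gave p = 0.1 in a two-sided exact permutation test, the smallest p that 3 against 3 or 3 against 2 libraries allow.

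**Figure D1:**
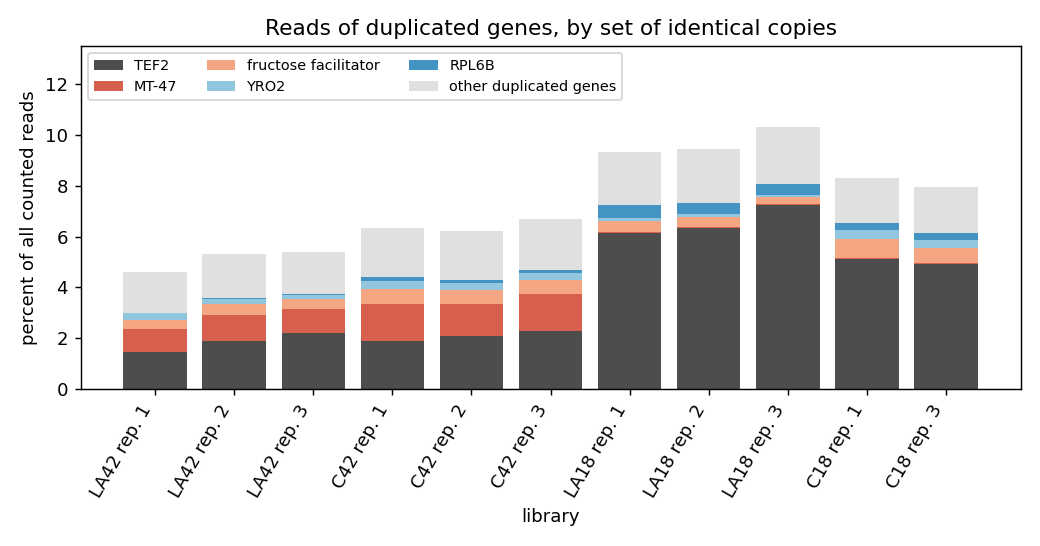
Share of all counted reads (percent, vertical axis) taken by duplicated genes in each of the 11 libraries, stacked by set, with lactic acid (LA) left of control (C) and 42 h left of 18 h. TEF2 takes the largest share of every 18 h bar, and the MT-47 segment is visible only at 42 h.

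Most of these reads came from few sets. TEF2, translation elongation factor EF-1 alpha, which brings aminoacyl-tRNA to the ribosome, held 36.0 ± 4.3% of the duplicated counts in lactic acid and 32.7 ± 2.4% in the control at 42 h (SD, n = 3 each), and 67.8 ± 2.3% (SD, n = 3) in lactic acid and 61.8 ± 0.075% (SD, n = 2) in the control at 18 h. MT-47 held 18.7 ± 0.8% in lactic acid and 21.7 ± 1.4% in the control at 42 h, but 0.31 ± 0.03% in lactic acid and 0.35 ± 0.05% in the control at 18 h. The 5 sets with the most counts held 69.4% of the duplicated counts in lactic acid and 69.6% in the control at 42 h, and 79.4% in lactic acid and 79.5% in the control at 18 h. Without TEF2 and MT-47, the remaining duplicated genes made up 2.31 ± 0.08% of all counted reads in lactic acid and 2.92 ± 0.06% in the control at 42 h, and 3.09 ± 0.06% in lactic acid and 3.07 ± 0.09% in the control at 18 h. The 18 h difference in total share was thus within the spread of the libraries once these sets were left out, and the 42 h groups stayed apart.

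Levels below are counts per 1000000 duplicated reads after TMM scaling (CPM), where TMM sets each library's total so that most sets centre on no change, and CPM is therefore relative to the other duplicated sets. Per kilobase of coding sequence, MT-47 was the highest set in lactic acid and in the control at 42 h, at 1010261 ± 18719 and 1276294 ± 111870 CPM per kb, and stood at rank 5 in both conditions at 18 h. TEF2 was highest in both conditions at 18 h, at 649800 ± 79116 CPM per kb in lactic acid and 593513 ± 23205 in the control, and at rank 2 at 42 h. Each level is the sum over all copies of a set, 7 for MT-47 and 2 for TEF2, divided by the length of 1 copy. The ranks are therefore those of sets and not of single copies. MT-47 is barely longer than a 100 nt read, so its level per kilobase is less certain than that of longer genes. The median set stood at 1215 CPM per kb in lactic acid and 1323 in the control at 42 h, and at 1153 and 1418 at 18 h.

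Of the 108 sets, 107 reached at least 1 CPM in 3 libraries of either condition and were tested. At 42 h, 27 sets were higher and 32 lower in lactic acid than in the control, or 25.2 and 29.9% of the sets tested (edgeR quasi-likelihood test, Benjamini-Hochberg adjusted p under 0.05). Across the 9683 genes of the full table tested in the same way, 28.2% were higher and 33.2% lower. At 18 h, 36 sets were higher and 36 lower, against 35.5% and 35.2% of the full table. The duplicated sets were therefore called about as often as other genes. With a change of at least 2-fold as well, 8 sets were upregulated and 14 downregulated at 42 h, beside 7.05 and 9.9% of the full table, and 9 were upregulated and 21 downregulated at 18 h, beside 4.25 and 20.7%. The median log2 fold change was -0.04 at 42 h and 0.08 at 18 h. Another scaling, RLE size factors, moved these medians up by 0.15 at 42 h and by 0.22 at 18 h, and then 35 sets were higher and 27 lower at 42 h. At 18 h, 46 were then higher and 29 lower.

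The response differed between times for many sets. The change with lactic acid at 42 h was above that at 18 h in 29 sets and below it in 30 (interaction term of the same model), beside 28.9 and 24.9% of the full table. Called higher at both times were 11 sets, or 10.3% beside 15.6% of the full table, and called lower at both were 16, or 15% beside 18.4%. The 4 sets higher at 42 h and lower at 18 h were 3.74% beside 4.3%, and the 7 with the opposite pattern were 6.54% beside 6.35%.

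**Figure D2:**
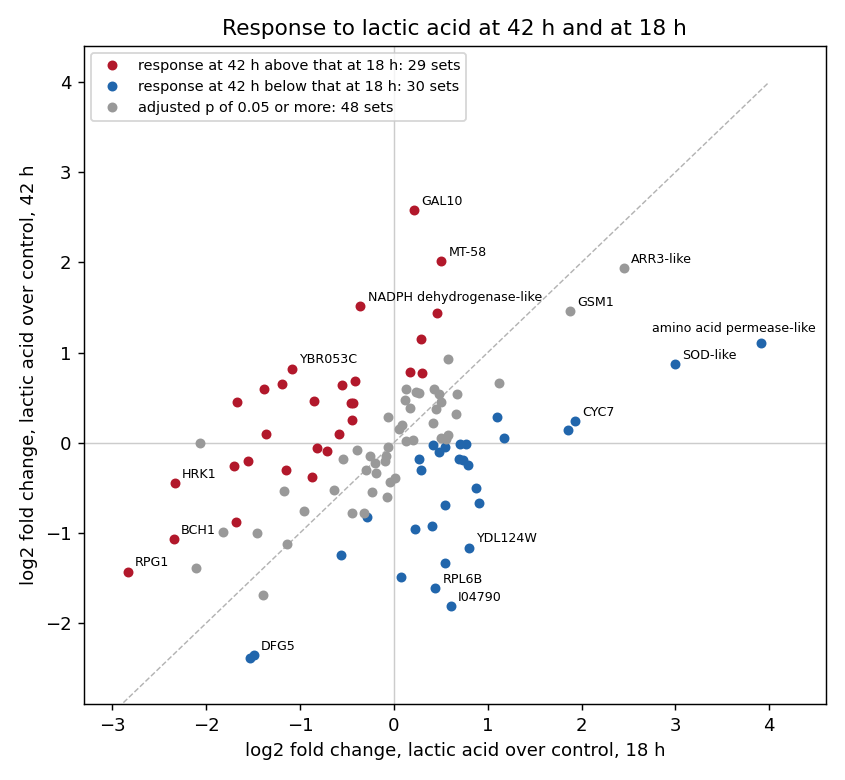
Log2 fold change of lactic acid over control at 42 h (vertical axis) against that at 18 h (horizontal axis) for the 107 sets tested, coloured by the test of the difference between the times, with the dashed line marking equal changes. GAL10 and MT-58 lie far above the line, at 2.58 and 2.01 against 0.22 and 0.50, and the amino acid permease-like and SOD-like sets far below it.

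The galactose genes were all higher in lactic acid at 42 h, but by unequal amounts. GAL10, UDP-glucose 4-epimerase, had 5317, 5341 and 4418 CPM in lactic acid and 865, 917 and 746 CPM in the control at 42 h. The groups were far apart, a log2 fold change of 2.58 ± 0.16 (SE, adjusted p = 2.7e-07). At 18 h it had 1340, 1323 and 943 CPM in lactic acid and 1082 and 990 CPM in the control, where the libraries overlapped (0.22 ± 0.17, adjusted p = 0.27, and past the threshold without lactic acid replicate 3 at 0.36 or with RLE size factors at 0.44). The response was larger at 42 h by 2.36 ± 0.22 (adjusted p = 7.6e-06). GAL1, galactokinase, the next gene on the chromosome, differed little between conditions at 42 h, with 5789, 5289 and 5263 CPM in lactic acid and 4054, 4096 and 3804 CPM in the control (0.45 ± 0.15, adjusted p = 0.026), a call lost without control replicate 1, 2 or 3 or lactic acid replicate 1 or 2 at 42 h, at values of 0.41 to 0.52. GAL1 was higher at 42 h than at 18 h in both conditions, by 2.74 ± 0.17 in lactic acid (42 h over 18 h, adjusted p = 2.5e-08) and 2.79 ± 0.20 in the control (adjusted p = 1.4e-07). GAL7, the uridylyltransferase between these enzymes in the pathway, had the lowest levels, with 320, 351 and 369 CPM in lactic acid and 217, 253 and 297 CPM in the control at 42 h. Levels at 18 h were 150, 166 and 128 CPM in lactic acid and 204 and 202 CPM in the control. Its change was 0.44 ± 0.15 at 42 h (adjusted p = 0.023) and -0.45 ± 0.17 at 18 h (adjusted p = 0.032). Both calls were lost when single libraries were left out, at 0.33 to 0.43 without control replicate 1 or 2 or lactic acid replicate 2 or 3 at 42 h, and at -0.36 to -0.46 without control replicate 1 or 3 or lactic acid replicate 1 or 3 at 18 h, and the 18 h value was -0.23 with RLE size factors.

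The MT sets changed in different comparisons. In lactic acid MT-47 had 139811, 145089 and 142440 CPM at 42 h, against 4317, 3792 and 4121 CPM at 18 h, a log2 fold change with time of 5.13 ± 0.14 (adjusted p = 4.0e-11). In the control it had 191408, 161966 and 186498 CPM at 42 h and 5311 and 4027 CPM at 18 h (5.27 ± 0.17, adjusted p = 2.5e-10). These were the largest changes of any set in either condition, and they did not differ between conditions beyond their error (-0.14 ± 0.18, adjusted p = 0.52). Between conditions at 42 h MT-47 was lower in lactic acid by a small amount (-0.34 ± 0.12, adjusted p = 0.03), which was not called with RLE size factors (-0.19), with the library sizes of the full table (-0.23), or without control replicate 1 or 3 or lactic acid replicate 1 or 2 at 42 h (-0.21 to -0.35). MT-58, its neighbour in the array, had 12035, 14103 and 9476 CPM in lactic acid and 2837, 3014 and 2985 CPM in the control at 42 h (2.01 ± 0.22, adjusted p = 1.2e-05). At 18 h it had 4061, 4438 and 2816 CPM in lactic acid and 3307 and 2015 CPM in the control, where the groups overlapped (0.50 ± 0.24, adjusted p = 0.076). The 18 h value passed the threshold with RLE size factors (0.72), without control replicate 1 (0.90) or without lactic acid replicate 3 (0.68).

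**Figure D3:**
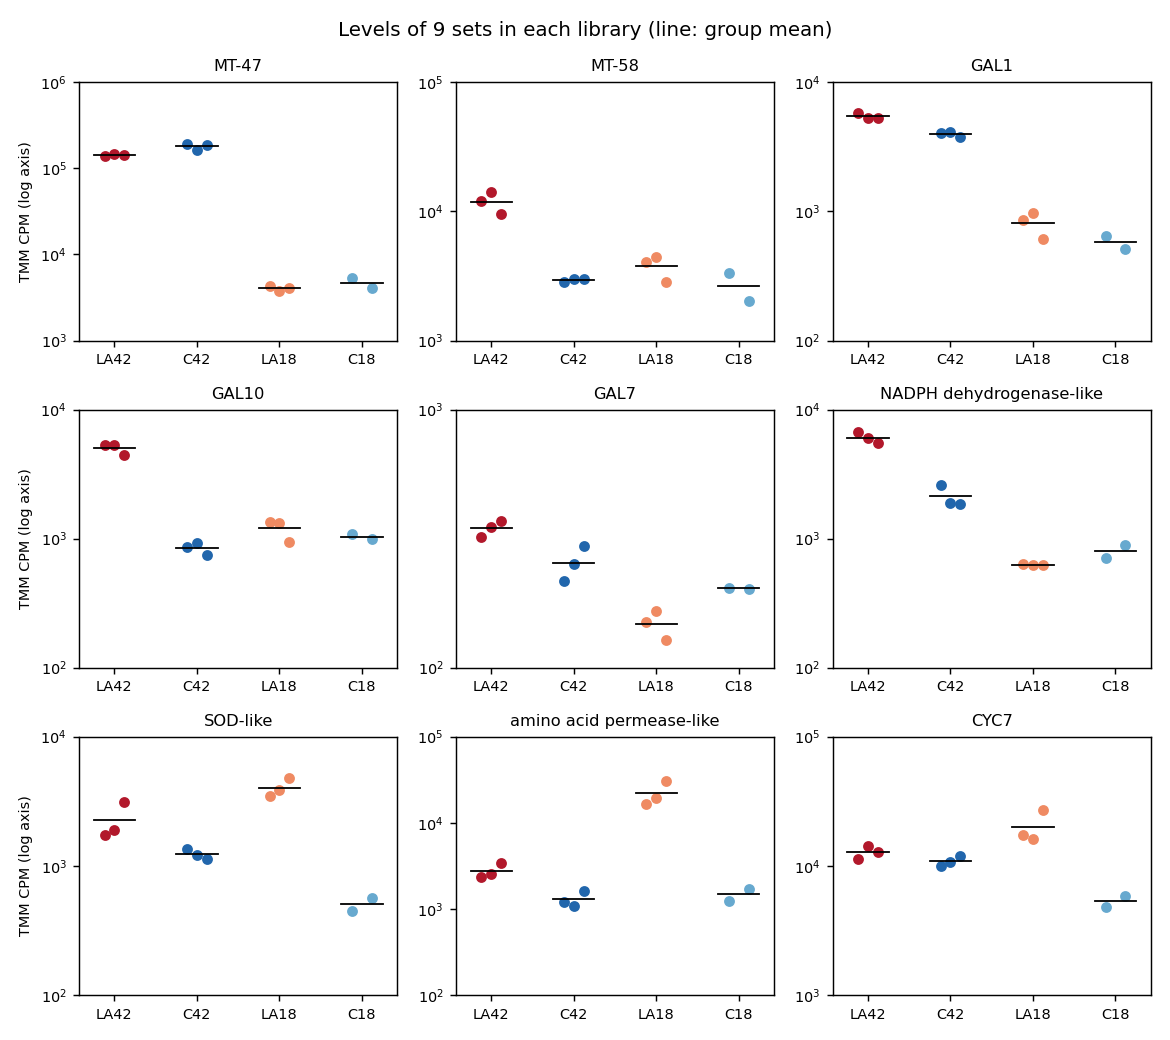
TMM-scaled counts per 1000000 duplicated reads (log axis) of 9 sets in every library, grouped as lactic acid 42 h (LA42), control 42 h (C42), lactic acid 18 h (LA18) and control 18 h (C18), with points for libraries and lines for group means. MT-47 separates by time, MT-58 and GAL10 stand out in the lactic acid 42 h libraries, and the amino acid permease-like set in the lactic acid 18 h libraries.

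A list of 13 sets with redox or mitochondrial roles was drawn up with earlier results of these data known. Of these 13, 4 were higher and 3 lower in lactic acid at 42 h, beside 25.2 and 29.9% of all sets. At 18 h, 10 were higher and 1 lower, beside 33.6 and 33.6%. Their median log2 fold change was -0.01 at 42 h and 0.80 at 18 h, beside -0.04 and 0.08 over all 107 sets. In 9 of the 13 the response at 42 h was below that at 18 h, beside 28% of all sets. In 2 it was above, beside 27.1%. The SOD-like set, a Cu,Zn superoxide dismutase, which turns superoxide into peroxide, had 1737, 1902 and 3093 CPM in lactic acid and 1338, 1216 and 1123 CPM in the control at 42 h (0.87 ± 0.21, adjusted p = 0.0037). At 18 h it had 3464, 3846 and 4801 CPM in lactic acid and 445 and 567 CPM in the control, a change of 2.99 ± 0.27 (adjusted p = 4.0e-06). CYC7, cytochrome c of the respiratory chain, had 17460, 16084 and 26883 CPM in lactic acid and 4768 and 5807 CPM in the control at 18 h (1.93 ± 0.22, adjusted p = 2.8e-05). At 42 h its groups overlapped, with 11331, 14130 and 12713 CPM in lactic acid and 9899, 10697 and 11799 CPM in the control (0.24 ± 0.18, adjusted p = 0.29, and past the threshold with DESeq2 at 0.39).

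DIC1, the mitochondrial dicarboxylate carrier, had 11534, 11086 and 3504 CPM in lactic acid and 3092 and 1732 CPM in the control at 18 h (1.85 ± 0.43, adjusted p = 0.0025). Lactic acid replicate 3 was low and stood close to the controls. TRX2, thioredoxin, was higher in lactic acid at 18 h by 0.74 ± 0.14 (adjusted p = 0.00067), and its 42 h value was -0.19 ± 0.12 (adjusted p = 0.19). COX10, which acts in the synthesis of heme A for cytochrome oxidase, was higher at 18 h by 0.70 ± 0.14 (adjusted p = 0.00098). CBP6, which acts in translation of cytochrome b mRNA, was higher by 0.88 ± 0.25 (adjusted p = 0.0085). The CBP6 call was lost without control replicate 1 at 18 h (0.66). RDL1, a thiosulfate sulfurtransferase, was higher in lactic acid at both times, by 0.66 ± 0.16 at 42 h and 1.12 ± 0.19 at 18 h. PET494, which acts in translation of the COX3 mRNA, was the set of the list that was lower at 18 h (-0.71 ± 0.16, adjusted p = 0.0021). RFS1, a flavodoxin-like protein, was higher at 42 h (0.59 ± 0.15, adjusted p = 0.0042).

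The NADPH dehydrogenase-like set ran the other way in time. It had 6649, 6033 and 5507 CPM in lactic acid and 2605, 1895 and 1857 CPM in the control at 42 h (1.52 ± 0.15, adjusted p = 5.1e-06). At 18 h it had 636, 628 and 624 CPM in lactic acid and 711 and 900 CPM in the control, lower in every lactic acid library but not past the threshold (-0.36 ± 0.17, adjusted p = 0.072), which it passed without control replicate 1 at 18 h (-0.52) or control replicate 1 or 3 at 42 h (-0.36 and -0.42). YDL124W, a predicted NADPH-dependent alpha-keto amide reductase, had 1547, 2037 and 2179 CPM in lactic acid and 3915, 4516 and 4463 CPM in the control at 42 h (-1.16 ± 0.13). In the 18 h cultures it had 5267, 5000 and 5684 CPM in lactic acid and 3114 and 2994 CPM in the control (0.80 ± 0.15). It was thus lower in lactic acid at 42 h and higher at 18 h, with no overlap at either time.

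The 4 sets that were higher in lactic acid at 42 h and lower at 18 h were GAL7, CPA1, YBR053C and E07110. CPA1, a subunit of carbamoyl phosphate synthetase in arginine synthesis, had 24279, 21164 and 20312 CPM in lactic acid and 13220, 13743 and 15146 CPM in the control at 42 h (0.64 ± 0.10). The 18 h values were 9685, 9583 and 10114 CPM in lactic acid and 14031 and 14680 CPM in the control (-0.55 ± 0.11). YBR053C, of unknown function, changed by 0.82 ± 0.14 at 42 h and -1.09 ± 0.15 at 18 h. E07110, annotated by similarity to dihydroflavonol reductases, changed by 0.46 ± 0.11 and -0.85 ± 0.12.

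The 7 sets lower in lactic acid at 42 h and higher at 18 h were RPL6B, YDL124W, MIX14, PNT1, MUD1, B04380 and I04790. I04790, a short gene of 207 bp without a known role, had 5086, 4384 and 5472 CPM in lactic acid and 16262, 17349 and 18917 CPM in the control at 42 h. Levels at 18 h were 3176, 3944 and 3219 CPM in lactic acid and 2414 and 2115 CPM in the control. Its change was -1.81 ± 0.13 at 42 h (adjusted p = 5.1e-07) and 0.61 ± 0.14 at 18 h (adjusted p = 0.0031). B04380, next to the MT array and also without a known role, changed by -1.34 ± 0.10 at 42 h and 0.54 ± 0.11 at 18 h. MIX14, a protein of the mitochondrial intermembrane space, changed by -0.67 ± 0.12 and 0.91 ± 0.14. PNT1, an inner membrane protein, changed by -0.92 ± 0.13 and 0.41 ± 0.14, and MUD1, of the U1 splicing particle, by -0.69 ± 0.13 and 0.55 ± 0.15. The 18 h call of PNT1 was lost without control replicate 1 (0.34) or lactic acid replicate 3 (0.29) at that time.

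Of the 10 sets for translation and ribosome assembly, 3 were lower in lactic acid at 42 h and the other 7 were not called. Over all sets, 25.2% were higher and 29.9% lower at that time. At 18 h, 3 of the 10 were higher and 4 lower, beside 33.6 and 33.6% of all sets. At 42 h the count of these 10 moved with scaling. It became 4 higher and 3 lower with RLE size factors, with the full-table library sizes, with no TMM or with DESeq2. TEF2 did not move with lactic acid beyond its error. It had 232353, 270812 and 323921 CPM in lactic acid and 249845, 270415 and 294319 CPM in the control at 42 h (0.02 ± 0.14, adjusted p = 0.90). In the 18 h cultures it had 822860, 841347 and 1020117 CPM in lactic acid and 839862 and 794674 CPM in the control (0.13 ± 0.16, adjusted p = 0.48). RPL6B, a protein of the large ribosomal subunit, had 4888, 5131 and 6393 CPM in lactic acid and 16534, 16500 and 17091 CPM in the control at 42 h, a change of -1.61 ± 0.12 (adjusted p = 6.0e-07). At 18 h it had 66502, 56080 and 58710 CPM in lactic acid and 46844 and 42211 CPM in the control (0.44 ± 0.13, adjusted p = 0.012), a call lost without control replicate 3 at 18 h (0.37). RPG1, a subunit of initiation factor eIF3, was lower in lactic acid at both times. It had 3241, 3173 and 3377 CPM in lactic acid and 9538, 8252 and 8577 CPM in the control at 42 h (-1.43 ± 0.10, adjusted p = 4.2e-07). The 18 h values were 3810, 3679 and 3998 CPM in lactic acid and 26362 and 28257 CPM in the control (-2.83 ± 0.11, adjusted p = 1.2e-09). FPR4, a peptidyl-prolyl isomerase gene beside RPL6B on both chromosomes, was lower at 42 h (-1.48 ± 0.19) and had 0.08 ± 0.21 at 18 h. THS1, threonyl-tRNA synthetase, was lower at 18 h (-0.45 ± 0.13), not called without control replicate 3 at 18 h (-0.41) or with RLE size factors (-0.23), and its 42 h value of 0.25 ± 0.11 was not called (adjusted p = 0.076) but passed with RLE size factors (0.41), without control replicate 3 (0.39) or without lactic acid replicate 1 (0.34).

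The 8 sets listed for membrane transport included YRO2, annotated as related to MRH1 and not as a transporter. The carrier DIC1 was listed with the redox and mitochondrial sets instead. Of the 8, 2 were higher and 3 lower in lactic acid at 42 h, beside 25.2 and 29.9% of all sets. At 18 h, 2 were higher and 4 lower, with YRO2 among the 4, beside 33.6 and 33.6%. The permease-like set I00100 and O00100, annotated as related to neutral amino acid permease and the outermost annotated gene at an end of chromosomes 9 and 15, had the largest increase with lactic acid of all sets at 18 h. It had 16528, 19372 and 30640 CPM in lactic acid and 1248 and 1705 CPM in the control at 18 h (3.91 ± 0.32, adjusted p = 2.5e-06). Levels at 42 h were 2367, 2538 and 3413 CPM in lactic acid and 1191, 1066 and 1605 CPM in the control (1.11 ± 0.25, adjusted p = 0.0025). The ARR3-like set, related to the arsenite transporter, was low but higher in lactic acid at both times, with 188, 222 and 111 CPM in lactic acid and 56.6, 33.8 and 44.0 CPM in the control at 42 h (1.93 ± 0.31, adjusted p = 0.00023). In the 18 h cultures it had 170, 177 and 266 CPM in lactic acid and 28 and 44.9 CPM in the control (2.45 ± 0.36, adjusted p = 0.00014). THI7, a thiamine transporter, was lower in lactic acid at both times, with log2 fold changes of -1.69 ± 0.19 at 42 h and -1.40 ± 0.20 at 18 h.

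The fructose facilitator, a hexose carrier, had 57524, 52642 and 38174 CPM in lactic acid and 122040 and 96666 CPM in the control at 18 h (-1.15 ± 0.16, adjusted p = 0.00013). At 42 h it had 56607, 61775 and 58643 CPM in lactic acid and 78458, 69543 and 70220 CPM in the control, lower in every lactic acid library but short of the threshold (-0.30 ± 0.15, adjusted p = 0.10), which it passed at the same value without lactic acid replicate 3 of 18 h. YRO2, related to the plasma membrane protein MRH1, had 16884, 17512 and 14238 CPM in lactic acid and 55963 and 49292 CPM in the control at 18 h (-1.70 ± 0.22, adjusted p = 6.3e-05). The 42 h values were 40221, 28734 and 21504 CPM in lactic acid and 41388, 34888 and 32255 CPM in the control, where the groups overlapped (-0.26 ± 0.20, adjusted p = 0.27, and -0.53 and past the threshold without lactic acid replicate 1). PUT4, a proline permease, was lower at 18 h (-1.38 ± 0.35, adjusted p = 0.005), and at 42 h lactic acid replicate 1 stood at 3089 CPM while the other lactic acid libraries, at 1623 and 1205 CPM, lay among the controls, at 1147, 1063 and 1717 CPM.

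GSM1, related to a zinc cluster regulator named for glucose starvation, was higher in lactic acid and at the later time. It had 4184, 5341 and 4729 CPM in lactic acid and 1650, 1744 and 1784 CPM in the control at 42 h (1.46 ± 0.17, adjusted p = 1.9e-05). Levels at 18 h were 536, 476 and 641 CPM in lactic acid and 111 and 187 CPM in the control (1.87 ± 0.22, adjusted p = 3.0e-05). HRK1, a kinase that acts on the plasma membrane proton pump, had 1753, 1826 and 1387 CPM in lactic acid and 8636 and 8074 CPM in the control at 18 h (-2.34 ± 0.34, adjusted p = 0.00013). At 42 h lactic acid replicate 1, at 14364 CPM, stood above the control libraries, at 12582, 11274 and 11427 CPM, while replicates 2 and 3, at 6537 and 4936 CPM, stood below them (-0.45 ± 0.30, adjusted p = 0.22), and without lactic acid replicate 1 the 42 h value was -1.04 and past the threshold.

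RPN2, of the regulatory particle of the proteasome, was lower in lactic acid at both times (-0.88 ± 0.14 at 42 h and -1.68 ± 0.16 at 18 h), with 9269, 6794 and 6631 CPM in lactic acid and 15151, 13110 and 13372 CPM in the control at 42 h. Of the 4 sets for protein turnover, 1 was higher and 1 lower at 42 h, beside 25.2 and 29.9% of all sets. At 18 h, 1 was higher and 2 lower, beside 33.6 and 33.6%. Of the 5 vesicle traffic sets, 2 were lower at 42 h and the other 3 were not called. At 18 h, 3 were higher and 1 lower, to be read beside the same shares of all sets. The set lower at both times was BCH1, a cargo adaptor of the exomer complex, with log2 fold changes of -1.07 ± 0.15 at 42 h (adjusted p = 7.1e-05) and -2.34 ± 0.16 at 18 h (adjusted p = 5.1e-07).

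Of the 5 cell shape and surface sets, 3 were lower in lactic acid at 42 h and the other 2 were not called. At 18 h, 1 was higher and 2 lower. DFG5, a GPI-anchored enzyme of cell wall assembly, had 134, 149 and 123 CPM in lactic acid and 952, 592 and 531 CPM in the control at 42 h (-2.36 ± 0.23, adjusted p = 4.6e-06). In the 18 h cultures it had 343, 326 and 291 CPM in lactic acid and 767 and 1036 CPM in the control (-1.49 ± 0.23, adjusted p = 0.00018). YLR050C, a predicted membrane protein outside this list, had 159, 92 and 72.6 CPM in lactic acid and 625, 554 and 532 CPM in the control at 42 h (-2.39 ± 0.23, adjusted p = 4.6e-06), and its 18 h change was -1.53 ± 0.23 (adjusted p = 0.00018).

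The 11 sets for amino acid, nucleotide and sugar metabolism gave 3 higher and 3 lower at 42 h, beside 25.2 and 29.9% of all sets. At 18 h, 2 were higher and 5 lower, beside 33.6 and 33.6%. The 12 sets for DNA, chromatin and RNA, to be read beside the same shares, gave 2 higher and 4 lower at 42 h. At 18 h, 3 were higher and 4 lower, which became 5 higher and 2 lower with RLE size factors. Their median log2 fold changes at 42 h were -0.19 and -0.18, beside -0.04 over all sets. RAD28, a WD repeat protein linked to DNA repair, was lower at 18 h (-1.36 ± 0.22, adjusted p = 0.00025) and had 0.09 ± 0.19 at 42 h.

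Near chromosome ends lay 28 of the sets, with every copy within 20 coding genes of the first or last annotated gene of a chromosome. Of the 27 of them tested, 10 were higher and 4 lower in lactic acid at 42 h. At 18 h, 8 were higher and 8 lower. Of the 73 sets with no copy there, 17 were higher and 27 lower at 42 h. Their counts at 18 h were 25 higher and 24 lower. The difference between the classes was not tested. Subtelomeric A10240 is 1 of the 8 sets of the Y element and DUP list, repeated genes of chromosome ends. The 8 sets gave 1 higher and 3 lower at 42 h, beside 25.2 and 29.9% of all sets. At 18 h, 4 were lower and 4 not called, beside 33.6% of all sets lower and 33.6% higher. A10240 itself was lower in lactic acid at both times (-0.98 ± 0.24 at 42 h and -1.82 ± 0.30 at 18 h). A00120, a set of 3 genes without a known role, had 296, 341 and 265 CPM in lactic acid and 99.3, 108 and 126 CPM in the control at 42 h (1.44 ± 0.16, adjusted p = 1.5e-05).

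**Figure D4:**
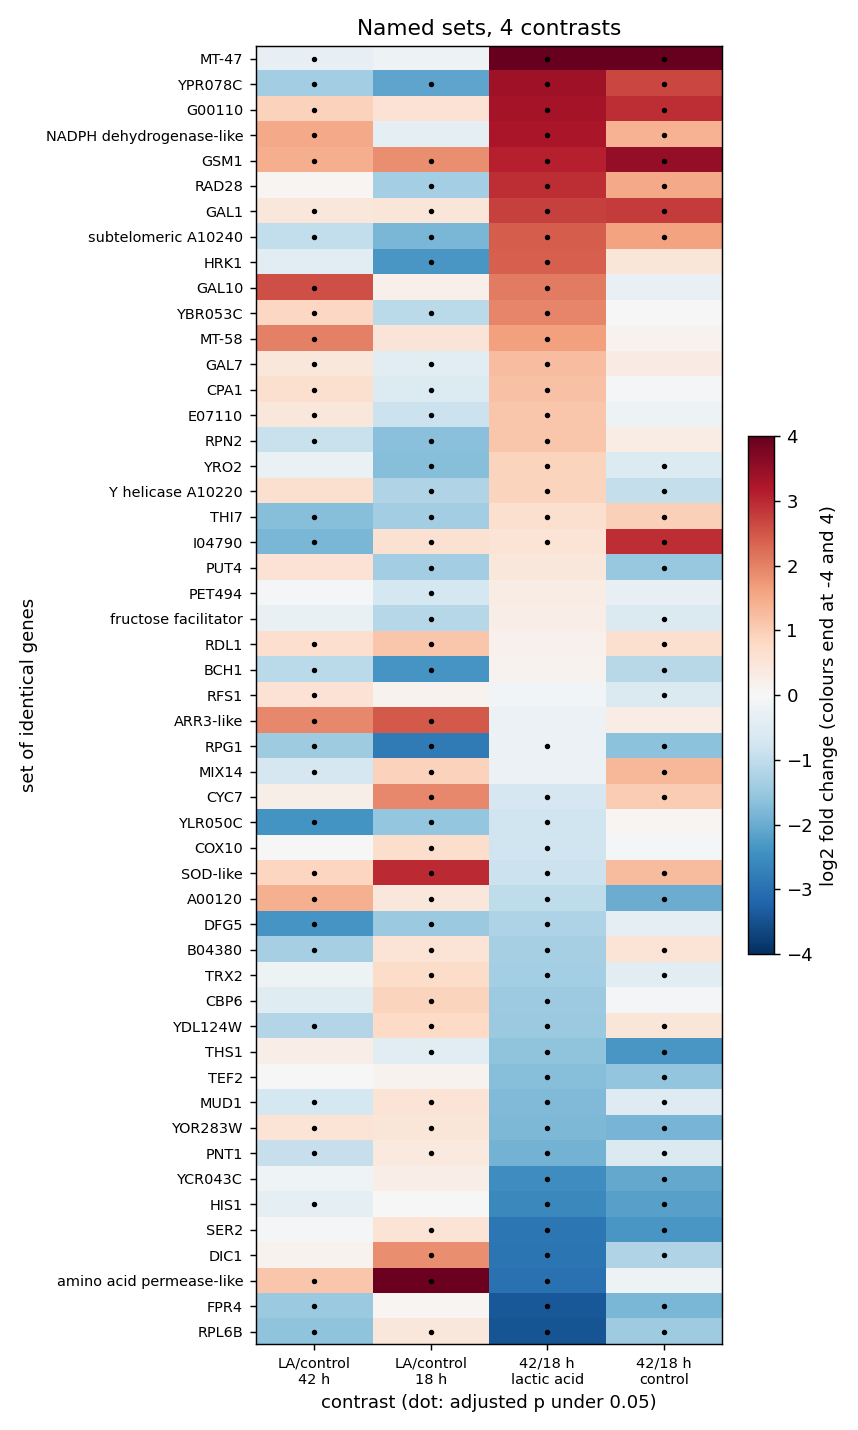
Log2 fold change (colour, red for higher and blue for lower) of the 51 named sets in 4 contrasts, lactic acid (LA) over control at 42 h and at 18 h and 42 h over 18 h in lactic acid and in the control, with a dot where adjusted p is under 0.05 and sets ordered by their change with time in lactic acid. MT-47 heads the time columns at 5.13 and 5.27, and RPL6B ends them at -3.47 in lactic acid.

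In lactic acid, 42 sets were higher and 45 lower at 42 h than at 18 h, beside 41.4 and 41.9% of the full table, and 30 of them were upregulated and 33 downregulated at least 2-fold, beside 24.9 and 24.3%. In the control, 33 were higher and 43 lower, beside 31.2 and 39.1%, and 20 and 19 passed 2-fold, beside 15.6 and 18.9%. With the totals of the duplicated table and no TMM, the medians moved up by 0.78 in lactic acid and 0.67 in the control, and the counts became 66 higher and 27 lower in lactic acid and 56 higher and 17 lower in the control. Called higher in both conditions were 25 sets, or 23.4% beside 26.3% of the full table, and called lower in both were 32, or 29.9% beside 31.4%. The 4 sets lower in lactic acid and higher in the control were 3.74% beside 1.32%, and the 3 with the reverse signs were 2.8% beside 2.86%. The lactic acid and control contrasts with time share no libraries with each other, but each shares its libraries with the contrasts between conditions.

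Under TMM scaling, 39.3% of all 107 sets were higher and 42.1% lower at 42 h than at 18 h in lactic acid. The control gave 30.8 and 40.2%. Most translation sets fell with time. Of the 10, 1 was higher and 7 lower at 42 h in lactic acid and 1 higher and 9 lower in the control, with medians of -1.01 and -0.91 beside -0.02 and -0.05 over all sets, and with no TMM the counts were 4 and 4 in lactic acid and 1 and 4 in the control. TEF2 fell in lactic acid (-1.70 ± 0.14, adjusted p = 3.3e-07) and in the control (-1.59 ± 0.15, adjusted p = 2.7e-06). RPL6B fell more in lactic acid (-3.47 ± 0.13) than in the control (-1.41 ± 0.13), a difference of -2.05 ± 0.18 (adjusted p = 5.7e-06). FPR4 showed the same order, with -3.40 ± 0.21 in lactic acid and -1.84 ± 0.21 in the control. Of the 11 sets of amino acid, nucleotide and sugar metabolism, 6 were higher and 4 lower at 42 h in lactic acid. In the control, 3 were higher and 5 lower. SER2, the last enzyme of serine synthesis, had 857, 847 and 953 CPM at 42 h and 6358, 6687 and 6840 CPM at 18 h in lactic acid (-2.9 ± 0.10), and 918, 881 and 936 CPM at 42 h and 4504 and 4589 CPM at 18 h in the control (-2.32 ± 0.10). HIS1, the enzyme that opens histidine synthesis, fell in lactic acid (-2.57 ± 0.13) and in the control (-2.16 ± 0.14). THS1 fell as well (-1.61 ± 0.12 in lactic acid and -2.32 ± 0.13 in the control). YCR043C, of unknown function, changed by -2.48 ± 0.11 in lactic acid and -2.03 ± 0.12 in the control, and YOR283W, a phosphatase, by -1.81 ± 0.13 and -1.87 ± 0.14. All 5 vesicle traffic sets were lower at 42 h in the control, beside 40.2% of all sets (4 of 5 with no TMM). In lactic acid 4 of 5 were lower, beside 42.1%.

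Several sets increased with time in both conditions. GSM1 changed by 3.11 ± 0.18 in lactic acid and 3.52 ± 0.23 in the control, and G00110, a chromosome end gene without a known role, by 3.32 ± 0.24 and 2.96 ± 0.29. YPR078C, of unknown function and beside TEF2, changed by 3.39 ± 0.30 in lactic acid and 2.68 ± 0.26 in the control, at levels of 81.4, 81.4 and 67.6 CPM at 42 h and 4.29, 8.98 and 8.66 CPM at 18 h in lactic acid. Of the 8 Y element and DUP sets, including subtelomeric A10240, 7 were higher and 1 was not called at 42 h in lactic acid. Their median was 1.89. In the control, 5 were higher and 2 lower, with a median of 1.48. Over all sets, 39.3% were higher and 42.1% lower in lactic acid, and 30.8 and 40.2% in the control. HRK1 rose with time in lactic acid (2.38 ± 0.32, adjusted p = 2.0e-05, and 1.79 without lactic acid replicate 1 at 42 h) and had 0.49 ± 0.34 in the control (adjusted p = 0.21). RAD28 rose by 2.95 ± 0.21 in lactic acid and 1.5 ± 0.23 in the control. The amino acid permease-like set fell in lactic acid (-3.0 ± 0.26, adjusted p = 4.1e-07) and had -0.20 ± 0.27 in the control (adjusted p = 0.55). I04790 rose by 2.95 ± 0.16 in the control and by 0.53 ± 0.13 in lactic acid.

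**Figure D5:**
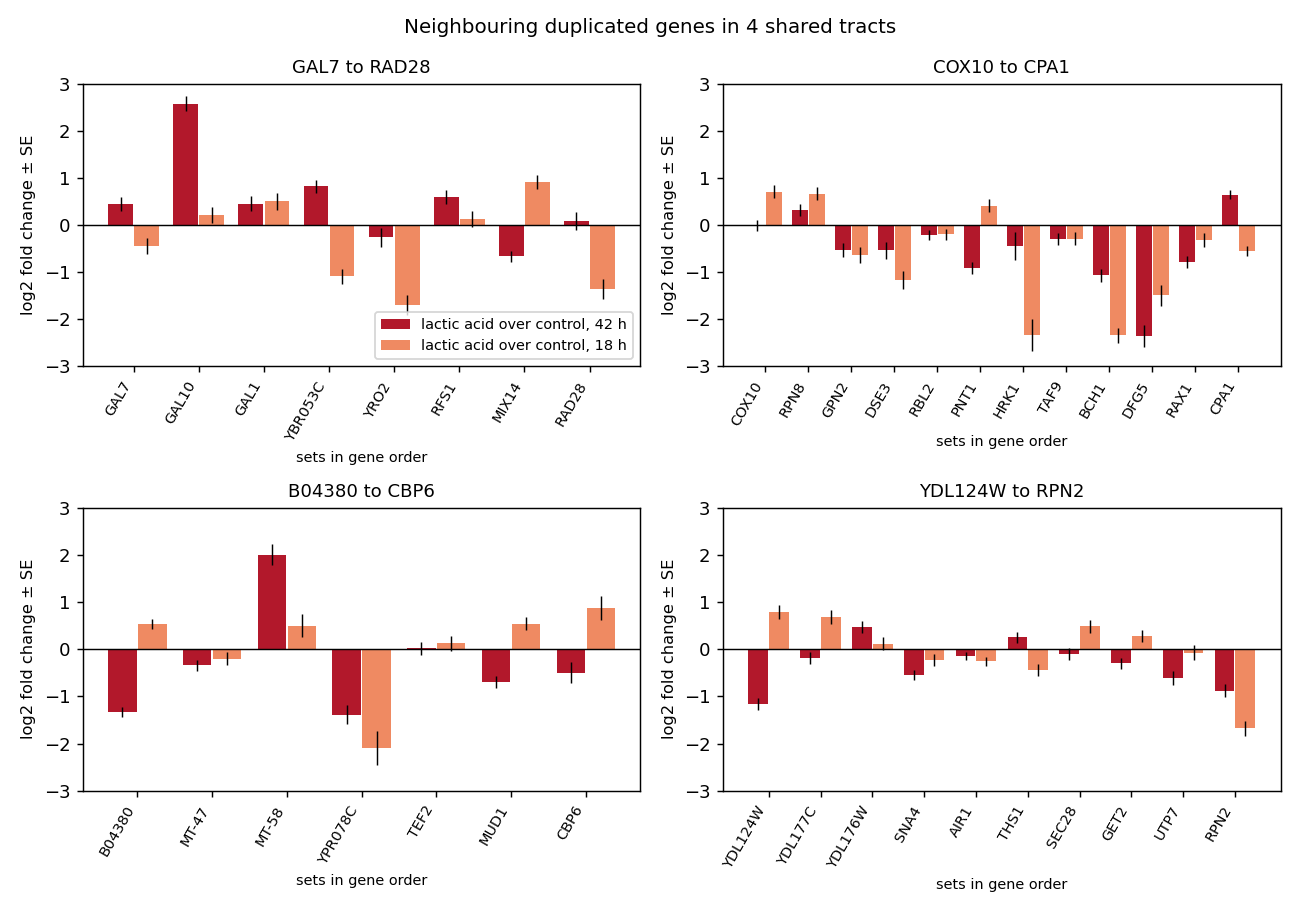
Log2 fold change of lactic acid over control (bars, with SE) at 42 h and at 18 h for the sets of 4 runs of neighbouring duplicated genes, in their gene order, each run present on 2 chromosomes. Bars of opposite sign stand next to each other in each of the 4 runs drawn, as for RFS1 (0.59) and MIX14 (-0.67) at 42 h.

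Runs of neighbours differed in whether their called sets moved one way. The counts below are to be read beside the shares of all 107 sets. Of these sets, 29.9% were called lower in lactic acid at 42 h, and 25.2% were called higher. In the 18 h cultures both shares were 33.6%. In the YLR050C to SMX2 run of 4 sets, 3 were lower in lactic acid at each time and SMX2 was not called. In the run of 5 sets that starts with the SOD-like set, 3 were higher at each time and the other 2 were not called. A run with only 3 called sets leaves less room for both directions than a longer run. Whether neighbours share a direction more often than other sets was not tested. The longer runs described next held calls in both directions at each time. In the GAL7 to RAD28 run of 8 sets, 5 were higher and 1 lower in lactic acid at 42 h. At 18 h, 2 were higher and 4 lower. Changes at 42 h ran from -0.67 (MIX14) to 2.58 (GAL10). In the 12 sets from COX10 to CPA1, 2 were higher and 6 lower at 42 h. At 18 h, 3 were higher and 6 lower, and the 18 h values ran from -2.34 (BCH1) to 0.70 (COX10). In the run of 7 sets around TEF2, 1 was higher and 4 lower at 42 h. At 18 h, 3 were higher and 1 lower. In the run of 10 sets from YDL124W to RPN2, 1 was higher and 5 lower at 42 h. At 18 h, 3 were higher and 3 lower. The TRX2 to GSM1 run of 6 sets held both SER2, which fell with time in either condition, and GSM1, which rose.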

How the data were processed

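RNA-seq libraries (rRNA-depleted TruSeq, 100 nt paired-end reads) were made from 12 samples. The authors aligned reads with Bowtie 1.1.2, allowing 0 mismatches, and counted them with HTSeq 0.6.0 without strand being stated in the sources used here. The deposited counts are raw: the full table holds uniquely placed reads, and the duplicated table holds reads with several equal placements, each put on 1 of them at random. A normalised signal, the authors' TMM-scaled CPM per duplicated gene (edgeR 3.18.1), and the authors' RPKM were deposited too and were used only as checks. For the 11 libraries used, recomputed CPM (230 genes) and RPKM matched them. No deposited column held fold changes or p-values.

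Duplicated counts were summed over identical genes, paired by the annotated homeolog for 80 sets and by equal coding length and annotation for 28. edgeR 4.0.16 in R 4.3.3 fitted 1 quasi-likelihood model of the 4 groups with TMM within the duplicated sets (DLD kept in the fit, 109 sets tested) after keeping sets with at least 1 CPM in 3 libraries of either condition. Calls used Benjamini-Hochberg adjusted p under 0.05. Standard errors were taken as log2 fold change over the root of F and are approximate. The script was tested on simulated data. The full table (10085 coding genes) was fitted in the same way after leaving out 14 pseudogenes or plasmid genes. Alternatives were RLE size factors, no TMM, full-table library sizes, 1 fit with the full table, limma-voom (limma 3.58.1), DESeq2 1.42.0, other filters, genes in place of sets, all 12 libraries, a replicate block, each library left out and, chosen after seeing the data, leaving out TEF2 and MT-47. Counting depth limits precision, and binomial error covers counting only.

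Sets were named by a rule: the 12 with the highest mean CPM, per contrast up to 6 in each direction with the largest called change, no overlap of libraries and at least 20 CPM in a group (for the interaction, 20 CPM on average), every galactose, MT and redox set, and sets called with opposite signs at the 2 times. Members, lists and rules were chosen with earlier results of these data known, and MT-47 was added to its list after the files were read. Coordinates and coding genes come from assembly ASM198439v2, and no sequence is printed.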

Additional observations from a re-analysis of the deposited data

Results flagged for a closer look

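In 38 of the named sets the change with lactic acid at 42 h differed from that at 18 h by the interaction term of the edgeR model (adjusted p under 0.05, values on the log2 scale). Beside this, the response at 42 h was above that at 18 h in 29 and below it in 30 of all 107 sets tested.

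The response at 42 h was above that at 18 h in 19 of the 38. GAL10 led with 2.36, and of its neighbours on chromosomes 10 and 13 YBR053C had 1.91, RAD28 1.45, YRO2 1.44 and GAL7 0.89. PUT4 had 1.97, HRK1 1.89, the NADPH dehydrogenase-like set 1.87, the Y helicase A10220 set 1.84 and MT-58 1.51. RPG1 had 1.41, E07110 1.31, BCH1 1.27 and CPA1 1.19. A00120 had 0.98, the fructose facilitator 0.84, RPN2 0.80, THS1 0.70 and PET494 0.62.

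The response at 42 h was below that at 18 h in the other 19. The amino acid permease-like set had -2.80, I04790 -2.42, the SOD-like set -2.12 and RPL6B -2.05. YDL124W had -1.96, B04380 -1.88, DIC1 -1.71, CYC7 -1.69, MIX14 -1.58 and FPR4 -1.56. CBP6 had -1.38, PNT1 -1.32, MUD1 -1.24 and TRX2 -0.93. DFG5 had -0.86, YLR050C -0.86, COX10 -0.71, SER2 -0.59 and YCR043C -0.45. Those of DFG5, YLR050C, YCR043C, PET494 and DIC1 missed the threshold in several of the fits that left out 1 library, and HRK1 fell to 1.30 without lactic acid replicate 1 at 42 h but stayed past it.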

How the results depend on the processing

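Of 193 called values of the 51 named sets, 152 kept their call in every alternative run and 41 lost it in at least 1. Many of these sets were named for large called changes without overlap or for high levels in these same fits. The share that kept its call therefore cannot stand for all sets tested. Direction reversed only with library totals and no TMM, and only for changes with time. The 9 called values that reversed were in the control the fructose facilitator (0.088), YRO2 (0.13), RFS1 (0.091), TRX2 (0.26), PNT1 (0.10) and MUD1 (0.14), and in lactic acid CYC7 (0.14), RPG1 (0.56) and YLR050C (0.0049). Values that had not been called also changed sign, in the control CPA1 (0.64), COX10 (0.58), CBP6 (0.59) and E07110 (0.47), and in lactic acid RFS1 (0.66) and MIX14 (0.53). That setting also moved the counts with time to 66 higher and 27 lower in lactic acid and 56 and 17 in the control, and those past 2-fold to 47 and 11 and to 37 and 7. TEF2 and MT-47, which hold most duplicated reads and change with time, enter these totals. With the full-table total as denominator the share of duplicated reads changed with time by -5.34 points in lactic acid and -2.01 in the control. Pairs of copies within 47 to 53% were 95% of those with at least 100 counts and 96.0% of those with at least 1000.

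With each library left out in turn, 23 to 30 sets were higher and 26 to 34 lower at 42 h, 28 to 38 and 27 to 41 at 18 h, 39 to 43 and 41 to 45 with time in lactic acid, and 31 to 38 and 37 to 44 with time in the control, and the interaction gave 23 to 35 and 22 to 36. With the replicate number as a block, 29 sets were higher and 32 lower at 42 h, 36 and 34 at 18 h, 42 and 45 with time in lactic acid, 33 and 44 in the control, and 27 and 30 for the interaction. Pairs of libraries with the same number had deviations correlated at -0.47 to 0.63 (15 pairs, mean 0.086). Other pairs had -0.63 to 0.53 (30 pairs, mean -0.038). The control at 18 h had 2 libraries, so their deviations mirror each other. These correlations therefore cannot decide whether libraries with the same number share a culture.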
